A study of Mus musculus with 69 samples.

Results

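Glycolysis enzymes were followed by RNA-seq in 2 kinds of mouse kidney tubule in mice that had lost 1 kidney to surgery (unilateral nephrectomy, UNx) and in sham-operated mice. The set held 10 genes, of 55487 genes listed at 24 h and 53700 at 72 h: Hk1, Gpi1, Pfkl, Aldoa, Tpi1, Gapdh, Pgk1, Pgam1, Pkm and Ldha. They were chosen by symbol, and Pgam1 was selected from measured values, namely its response at 72 h, which appeared opposite in the proximal tubule and the collecting duct. The changes of these enzymes at 72 h are therefore given as descriptions with no test. All 10 symbols were found in each of the 4 tables. A second Aldoa row, never above 3.12 TPM in an animal, was kept apart. TPM is a gene's share of a library's transcripts after scaling to length.

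All animals were wild-type male C57BL/6 mice, 7 weeks old at surgery. Tubules were dissected at 24 h or 72 h and labelled PT-S1, the start of the proximal tubule, or CCD, the cortical collecting duct. For PT-S1 at 24 h, 3 sham animals gave 8 libraries and 4 UNx animals gave 9, and at 72 h the 5 animals of either group gave 12. For CCD at 24 h, 4 sham animals gave 8 libraries and 3 UNx animals gave 7, and at 72 h 4 sham animals gave 7 and 4 UNx animals gave 6. Libraries of 1 animal were averaged, and n below counts animals. Whether tubules of both segments came from the same mice is not stated in the labels.

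Glycolysis splits glucose into pyruvate in the cytosol and yields a little ATP without oxygen. Lactate dehydrogenase then interconverts pyruvate and lactate. The proximal tubule is known as a segment that makes glucose and burns fatty acids, while distal segments such as the collecting duct use glycolysis more. Several steps have isozymes encoded by separate genes, so the level of 1 gene need not show the level of the step. Liver-type pyruvate kinase (Pklr), lactate dehydrogenase B (Ldhb) and the muscle-type phosphoglycerate mutase (Pgam2) are examples that are described here.

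Depth is unknown because TPM keeps no read totals. Libraries had 9247 to 14875 genes at 1 TPM or more. A low correlation with the rest of the table, under 0.92 at the median, set 5 libraries apart: 1 each of sham animals 1 and 3 in PT-S1 at 24 h, of UNx animals 1 and 2 in PT-S1 at 72 h, and of sham animal 1 in CCD at 72 h. The main changes of the enzymes in these 3 tables are given with and without them. Over PT-S1 animals, the 8 markers of the S1 and S2 proximal tubule summed to between 8193 and 18228 TPM, and over CCD animals to between 12.1 and 79.3 TPM. The 8 principal cell markers summed to between 22267 and 66949 TPM over CCD animals and to between 71.5 and 135 TPM over PT-S1 animals, so the labelled segments carried their markers. In such bulk samples fewer cells of a type and less RNA per cell cannot be told apart.

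Promoter windows are shown for Pgam1, the gene whose 72 h response marks the set, for Pgk1, which was also higher in every UNx animal of CCD at 72 h, and for Pgam2, the other mutase gene. Pkm was higher there in every UNx animal too when all libraries were kept, and its windows are not shown. The windows run from 250 bases before to 50 bases after the transcript start and come from RefSeq on GRCm38.p6. They lie at chr19:41911621-41911920 on the plus strand for Pgam1, at chrX:106186850-106187149 on the plus strand for Pgk1 and at chr11:5803747-5804046 on the minus strand for Pgam2. Capitals mark ACGTG and GCGTG on either strand, the core of the hypoxia response element bound by HIF, a factor known for driving glycolysis genes.
Pgam1: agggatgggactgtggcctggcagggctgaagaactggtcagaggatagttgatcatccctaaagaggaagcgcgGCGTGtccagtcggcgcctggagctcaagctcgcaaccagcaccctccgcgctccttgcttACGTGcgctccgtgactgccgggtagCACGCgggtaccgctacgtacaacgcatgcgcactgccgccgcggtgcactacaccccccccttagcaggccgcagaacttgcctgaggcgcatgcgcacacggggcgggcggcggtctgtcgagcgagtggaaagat
Pgk1: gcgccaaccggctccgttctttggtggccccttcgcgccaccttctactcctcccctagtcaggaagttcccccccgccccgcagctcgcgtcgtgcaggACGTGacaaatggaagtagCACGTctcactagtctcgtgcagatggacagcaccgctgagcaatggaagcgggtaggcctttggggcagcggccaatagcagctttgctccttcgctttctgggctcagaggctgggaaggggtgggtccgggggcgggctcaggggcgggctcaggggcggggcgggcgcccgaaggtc
Pgam2: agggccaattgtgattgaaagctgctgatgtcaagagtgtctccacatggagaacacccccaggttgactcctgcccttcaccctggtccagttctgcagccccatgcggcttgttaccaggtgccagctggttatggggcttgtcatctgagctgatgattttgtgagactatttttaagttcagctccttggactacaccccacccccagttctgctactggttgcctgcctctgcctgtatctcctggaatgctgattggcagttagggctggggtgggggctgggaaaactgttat
The Pgam1 window held 3 matches, that of Pgk1 held 2 and that of Pgam2 held 0. Among the other enzymes, windows of Ldha held 7 and 2, those of Pkm held 0 and 2, that of Gapdh held 3, and those of Gpi1 and Tpi1 held 0. At least 1 match was present in 8 of the 10 enzymes, all of which had a window, and in 10 of their 15 windows. Of all 32851 windows in the table, 43.8% held a match, which is a share per window and not per gene. A CACGTG site counts on both strands. These are letter matches only, binding was not measured, and a link of the matches to the changes was not tested.

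Among the enzymes of the set, sham tubules of both segments differed most in Hk1, at the entry of the pathway, and Pkm, near its exit. Hexokinase 1, the product of Hk1, which traps glucose in the cell as a phosphate, stood at 311 ± 46.8 TPM (SD, n = 4) in CCD and 1.11 ± 0.380 TPM (SD, n = 3) in PT-S1 at 24 h. Pkm, the pyruvate kinase of most tissues, which makes the final ATP of the pathway, stood at 869 ± 64.1 TPM (SD, n = 4) against 3.65 ± 1.11 TPM (SD, n = 3). The ratio of CCD to PT-S1 was 280-fold for Hk1 and 238-fold for Pkm at 24 h, and 239-fold and 154-fold at 72 h. For Pgam2, a mutase gene of a middle step and outside the set, it was larger, at 858-fold and 452.5-fold. The PT-S1 level of Pgam2 was only 0.538 TPM at 24 h and 1.19 TPM at 72 h. The segments come from separate tables that may have been normalized separately, so these levels are set side by side with no test.

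**Figure D1:**
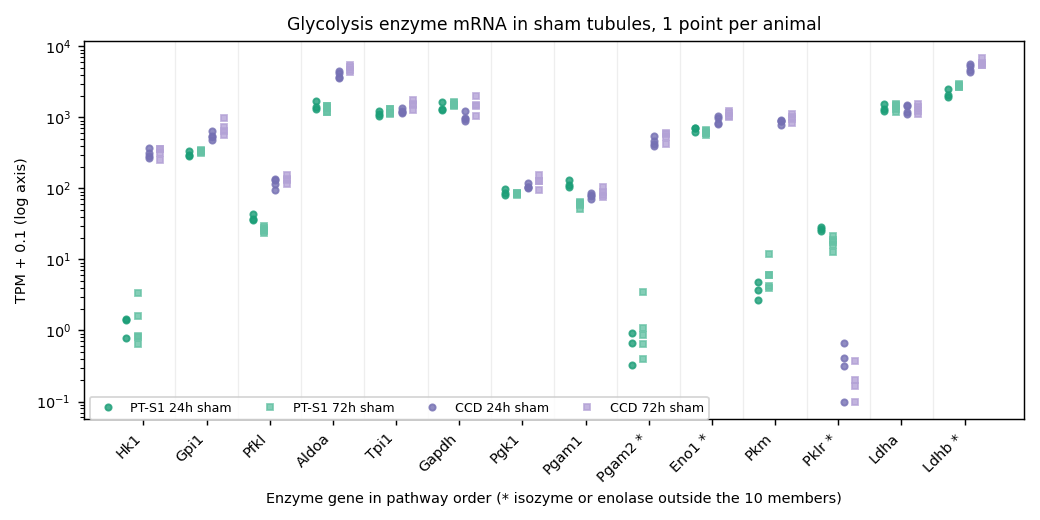
Levels in sham animals. The vertical log axis gives TPM plus 0.1, each point is the mean of 1 animal, circles are 24 h and squares 72 h, and green is PT-S1 and purple CCD. Hk1, Pkm and Pgam2 sit at 11.7 TPM or less in PT-S1 and at 252 TPM or more in CCD, while Pklr shows the opposite order.

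The remaining 8 enzymes differed less. Aldoa, which cleaves fructose bisphosphate, was the highest of the set in CCD, at 4014 ± 464 TPM (SD, n = 4) at 24 h, and every CCD sham animal had more Aldoa than any other of the 10. In PT-S1 at 24 h Aldoa averaged 1474 TPM, Gapdh 1416 TPM and Ldha 1374 TPM, with overlapping animals. Pfkl, the liver-type phosphofructokinase at the committed step, was at 119 ± 18.3 TPM in CCD and 38.9 ± 3.90 TPM in PT-S1 at 24 h. Gpi1, which isomerises glucose 6-phosphate, was at 550 ± 62.7 TPM and 305 ± 26.6 TPM. For Tpi1, the triose phosphate isomerase, for Gapdh, which makes NADH, for Pgk1, which makes the first ATP, and for Ldha, the ratio of CCD to PT-S1 lay between 0.719 and 1.20 at 24 h. Pgam1, which moves the phosphate from carbon 3 to carbon 2 of glycerate, was the lowest of the 10 in CCD, at 79.4 ± 6.46 TPM (SD, n = 4) at 24 h and 87.1 ± 12.0 TPM (SD, n = 4) at 72 h. In CCD at 72 h its animals overlapped those of Pgk1, the next gene up. For Pgam1 the ratio of CCD to PT-S1 was 0.682 at 24 h and 1.47 at 72 h, with PT-S1 sham means of 116 and 59.2 TPM. In PT-S1, where Pkm and Hk1 were the lowest, every sham animal had more Pgam1 than Pgk1 at 24 h, and the reverse at 72 h.

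Isozymes outside the set differed between the segments as well. Pklr stood at 26.7 ± 1.75 TPM (SD, n = 3) in sham PT-S1 at 24 h, and Pkm gave 11.95% of pyruvate kinase TPM there and 99.97% in CCD. Pgam2 was at 0.538 TPM in PT-S1 and 461 ± 65.8 TPM (SD, n = 4) in CCD at 24 h, so Pgam1 gave 99.5% of mutase TPM in PT-S1 and 14.8% in CCD. Ldhb exceeded Ldha in both segments, and Ldha gave 38.7% of lactate dehydrogenase TPM in PT-S1 and 21.0% in CCD. For hexokinase no isozyme of the step reached a mean of 1 TPM in PT-S1 at 24 h over all animals, and Hk1 gave 98.8% of hexokinase TPM in CCD.

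At 24 h in PT-S1 the fitted change was above 0 for all 9 enzymes tested, and 0 of them passed the test. Hk1 was under the level of 1 TPM needed for testing. Changes are on the log2(TPM + 1) scale, UNx minus sham, from limma with Benjamini-Hochberg adjustment over all genes tested. No gene of the table passed an adjusted p of 0.05 (0.0% of 11874 genes), and 1 of 9 enzymes against 17.8% of all genes had an unadjusted p under 0.05. The median change was 0.30 over the 9 enzymes and -0.19 over all genes tested. Without the low-correlation libraries 6 of the 9 were above 0, with a median of 0.07 against -0.21 over all genes. In 3 enzymes, Gpi1, Gapdh and Ldha, every UNx animal was above every sham animal, which was so for 2.79% of all genes.

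Ldha, whose product favours the making of lactate, showed the largest difference. Sham animals had 1321, 1560 and 1240 TPM, and UNx animals had 2180, 1784, 1952 and 1940 TPM. The groups did not overlap. The log2 change was 0.55 ± 0.16 (SE), a 1.47-fold difference, with a limma adjusted p of 0.254. Without the low-correlation libraries it was 0.35 ± 0.13 with an adjusted p of 0.146.

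Gpi1 was at 293, 336 and 287 TPM in sham animals and at 353, 353, 508 and 352 TPM in UNx animals. UNx animal 3 was far above the others, and the lowest UNx animal was just above the highest sham animal. The log2 change of Gpi1 was 0.35 ± 0.18 (SE), with a limma adjusted p of 0.306, and 0.23 ± 0.15 without the low-correlation libraries. Gapdh was at 1314, 1663 and 1269 TPM in sham animals and at 1814, 1680, 1709 and 1743 TPM in UNx animals. Its groups were separated by less than the spread of the sham animals, and its log2 change was 0.33 ± 0.16 (SE), with an adjusted p of 0.299, and 0.21 ± 0.14 without those libraries.

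Pgam1 in PT-S1 at 24 h was at 113, 133 and 103 TPM in sham animals and at 130, 130, 146 and 139 TPM in UNx animals. The groups overlapped through sham animal 2. The log2 change was 0.30 ± 0.16 (SE), with a limma adjusted p of 0.334, and was 0.06 ± 0.11 without the low-correlation libraries, 1 of which held 41.9 TPM of Pgam1. The changes of Tpi1, Pgk1 and Pfkl ranged from 0.02 to 0.09 and turned to between -0.13 and -0.02 without those libraries. Aldoa at 0.21 ± 0.18 and Pkm at 0.34 ± 0.36 were within the spread between animals and came to 0.07 and 0.12 without those libraries, and Pkm was at most 10.3 TPM in any animal. Proximal tubule markers also differed between these groups, all 8 at 1 TPM or more: their sum was 13339 to 17244 TPM over sham animals and 8193 to 13756 TPM over UNx animals. Their part in the enzyme changes was not tested.

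**Figure D2:**
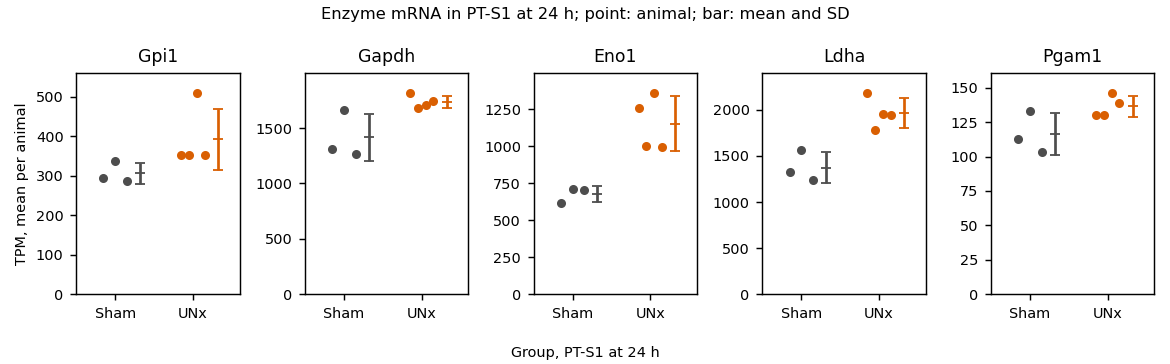
PT-S1 at 24 h. The vertical axes give TPM on linear scales from 0, each point is 1 animal, and the bars are the mean and SD of 3 sham and 4 UNx animals. Gpi1, Gapdh, Eno1 and Ldha have no UNx animal within the sham range, while Pgam1 overlaps.

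The enolase step lies between Pgam1 and Pkm and is outside the set. Its main gene Eno1 had 617, 709 and 706 TPM in sham animals and 1259, 1005, 1357 and 992 TPM in UNx animals of PT-S1 at 24 h. The groups did not overlap. The log2 change was 0.78 ± 0.17 (SE), larger than that of any of the 10 enzymes, with a limma adjusted p of 0.228 and 0.094 without the low-correlation libraries. Of the list of 19 other isozymes and enolases, 9 were tested and 0 passed, against 0.0% of 11874 genes. Ldhb, the isozyme that favours the use of lactate, changed by -0.06 ± 0.20, with an adjusted p of 0.874.

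In CCD at 24 h the changes of all 10 enzymes were above 0 and small, between 0.04 and 0.37 on the log2 scale, and 0 passed the test. Of all 13775 genes tested with limma, 0.987% passed an adjusted p of 0.05 and 15.5% had an unadjusted p under 0.05, against 2 of the 10 enzymes, Pfkl and Pkm. The median change was 0.16 over the enzymes and -0.04 over all genes. Pkm was the 1 enzyme whose groups did not overlap in the upward direction, against 5.55% of all genes. It was at 900, 915, 775 and 887 TPM in sham animals and at 1099, 985 and 1005 TPM in UNx animals. Its log2 change was 0.25 ± 0.08 (SE), with an adjusted p of 0.205. With libraries kept separate and the animal as a random effect, Pkm was the only one of the 10 to pass. In that setting 485 of 13775 genes passed. For Pfkl the sham level was 119 ± 18.3 TPM (SD, n = 4) and the UNx level 153 ± 18.7 TPM (SD, n = 3), with overlapping animals, a log2 change of 0.37 ± 0.13 (SE) with an adjusted p of 0.234.

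Pgam1 in CCD at 24 h was at 86.4, 78.9, 70.9 and 81.4 TPM in sham animals and at 114, 84.5 and 76.8 TPM in UNx animals. UNx animal 1 was above the sham range and the others were within it. The log2 change was 0.19 ± 0.13 (SE), with a limma adjusted p of 0.544. The principal cell markers moved in the same table: their sum was 25206 to 50599 TPM in sham and 48195 to 66949 TPM in UNx animals, all 8 at 1 TPM or more, and their part in the enzyme changes was not tested.

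The difference between the UNx effects of both segments at 24 h was tested directly. It passed for 0 of the 9 enzymes measured in both tables, against 0.137% of 10988 genes, and at an unadjusted p under 0.05 for 0 of 9 against 15.4% of genes. For Pgam1 the effect in PT-S1 minus the effect in CCD was 0.11 on the log2 scale, with a 95% interval from -0.33 to 0.55 and a limma adjusted p of 0.822. Without the low-correlation libraries it was -0.13, with an interval from -0.49 to 0.23. For Ldha it was 0.30, with an interval from -0.16 to 0.76, and for Pfkl -0.35, with an interval from -0.95 to 0.25. These intervals do not show that the segments acted alike.

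The scaling of a library cancels in its own isozyme shares, but it weights that library in the animal mean used here. Isozyme shares were compared at 24 h in 9 tests by two-sided exact permutation over animals, where the smallest p possible was 0.0286. None passed after Benjamini-Hochberg adjustment. Over 9 tests a single share at that smallest p has an adjusted p of 0.257, so it could not have passed alone. In PT-S1 the Ldha share of lactate dehydrogenase was 40.3%, 38.1% and 37.6% in sham animals and 53.0%, 46.7%, 54.2% and 42.3% in UNx animals. The UNx animals lay above the sham range, with an exact p of 0.0571 and an adjusted p of 0.257. The Pfkl share of phosphofructokinase in CCD was 26.3 ± 2.22% in sham animals (SD, n = 4) and 31.1 ± 2.62% after UNx (SD, n = 3), with an exact p of 0.0286 and an adjusted p of 0.257. Its highest sham share was 28.2% and its lowest UNx share 28.3%. The Pgam1 share in CCD was 14.8 ± 1.21% (SD, n = 4) and 15.7 ± 1.36% (SD, n = 3), with an exact p of 0.400.

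**Figure D3:**
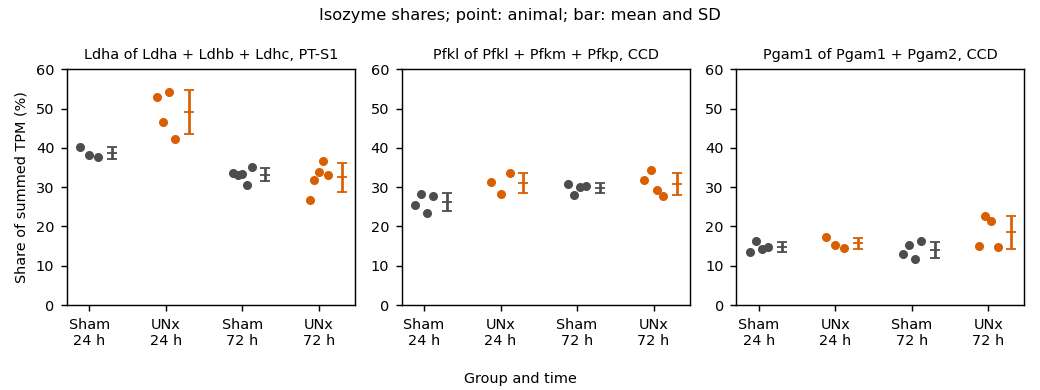
Isozyme shares. The vertical axes give the named gene as a percent of the summed TPM of its step, each point is 1 animal, grey is sham and orange UNx, and bars are the mean and SD. The Ldha share in PT-S1 at 24 h and the Pfkl share in CCD at 24 h have no overlap between groups. The Pfkl groups nearly touch, and at 72 h both shares overlap.

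The 72 h contrasts were used in choosing the set, so their values describe it and support nothing. In CCD at 72 h Pgam1 was at 87.6, 76.5, 80.7 and 104 TPM in sham animals and at 142, 141, 163 and 164 TPM in UNx animals. The lowest UNx animal was well above the highest sham animal, and the same held for single libraries, where the highest sham library had 113 TPM and the lowest UNx library 141 TPM. The log2 change was 0.81 ± 0.11 (SE), a 1.75-fold difference, and 0.84 without the low-correlation library. With 1 animal left out in turn the change lay between 0.75 and 0.89. In limma 0.595% of all 13770 genes passed, and no call is read for the enzymes.

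Other enzymes differed less in that table. The groups also did not overlap for Pgk1, at 127, 96.4, 156 and 128 TPM in sham and 161, 179, 189 and 171 TPM in UNx animals, with a log2 change of 0.48. For Pkm, with a sham mean of 976 ± 106 TPM and a UNx mean of 1219 ± 69.5 TPM (SD, n = 4 each), the change was 0.34, and the groups overlapped without the low-correlation library. All UNx animals were above all sham animals for these 3 enzymes and for 3.23% of all genes, and without that library for 2 enzymes and 3.78% of all genes. The other 7 enzymes changed by 0.02 for Ldha up to 0.34 for Hk1, which fell to 0.05 without that library. The median change over the 10 was 0.28, and over all genes 0.01.

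Set within each animal against the mean log2 level of Gpi1, Pfkl, Aldoa, Tpi1, Gapdh, Pgk1 and Ldha, Pgam1 lay at -3.15 ± 0.26 in sham and at -2.56 ± 0.18 in UNx animals of CCD at 72 h (log2 units, SD, n = 4 each). The ranges were -3.49 to -2.86 and -2.77 to -2.35 and did not overlap. In PT-S1 at 72 h the same measure was -2.84 ± 0.19 in sham and -2.86 ± 0.27 in UNx animals (SD, n = 5 each), with overlapping ranges. Pgam2 in CCD at 72 h averaged 539 ± 82.2 TPM for sham and 707 ± 207 TPM for UNx (SD, n = 4 each), with overlapping animals. Principal cell marker sums overlapped as well, at 22267 to 42908 TPM over sham and 24185 to 31430 TPM over UNx animals. The Pgam1 share of mutase TPM was 14.0 ± 2.12% in sham and 18.5 ± 4.17% in UNx animals, with overlapping animals. Reads of the Pgam1 pseudogenes Pgam1-ps1 and Pgam1-ps2 could in part belong to Pgam1, and both were at most 2.68 TPM in any animal.

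**Figure D4:**
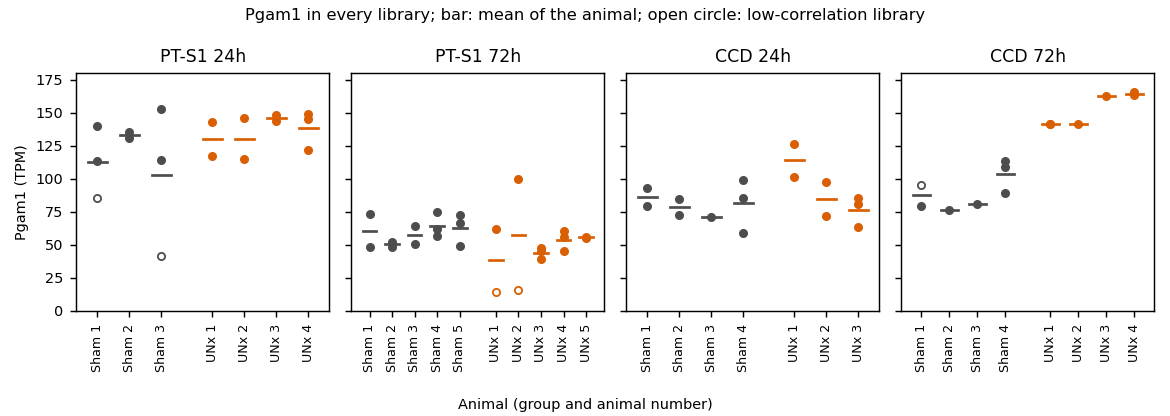
Pgam1 in every library. The vertical axis gives TPM, each position is 1 animal, points are libraries, bars the mean of the animal, and open circles the low-correlation libraries. In CCD at 72 h all UNx libraries are at 141 TPM or more and all sham libraries at 113 TPM or less, and in PT-S1 at 72 h the lowest points are the 2 open circles.

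In PT-S1 at 72 h Pgam1 was at 60.8, 50.4, 57.6, 64.6 and 62.7 TPM in sham animals and at 38.5, 57.8, 44.2, 54.0 and 55.8 TPM in UNx animals. The groups overlapped. The log2 change was -0.41 ± 0.19 (SE), while the median over all genes was -0.29. The 2 low-correlation libraries held 14.7 and 16.0 TPM of Pgam1, and the other libraries of the same animals 62.4 and 99.6 TPM. Without these 2 libraries, when UNx animals 1 and 2 rested on 1 library each, the change of Pgam1 was 0.05 ± 0.18 (SE) and the median of all genes -0.02. The UNx animals with no such library were at 44.2, 54.0 and 55.8 TPM, below the sham mean of 59.2 TPM and in part within the sham range. With 1 animal left out in turn and all libraries kept, the change lay between -0.49 and -0.28.

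The other enzymes were also low in these libraries, with Gapdh at 464 and 610 TPM and Ldha at 282 and 386 TPM. In PT-S1 at 72 h changes of all 10 were below 0, from -0.60 for Pkm to -0.18 for Hk1, against 17.0% of all genes with a change above 0. Without the 2 libraries 6 of 10 were above 0, and the range was -0.17 to 0.24. In limma 0.0% of all 11886 genes passed, and no call is read for the enzymes. With every change below 0, no enzyme could have all UNx animals above all sham animals, which was so for 0.236% of genes. Those 2 libraries had 9247 and 9632 genes at 1 TPM or more, while the other libraries of the table had at least 11198, and their proximal tubule marker sums were 2523 and 2566 TPM, under the 9698 TPM of the lowest sham library. Principal cell markers, 2 of 8 of which reached a mean of 1 TPM, summed to between 71.5 and 79.8 TPM in sham and between 96.3 and 135 TPM in UNx animals. Markers of intercalated cells, the other main cell type of the collecting duct, were low and went the other way: 2 of 8 reached a mean of 1 TPM, 1 was at 0 in every library, and their sum was 3.67 to 23.9 TPM over sham and 1.94 to 2.94 TPM over UNx animals. The part of either list in the enzyme values, Hk1 and Pkm included, was not tested. Under median-ratio scaling, which removes a shift shared by most genes, Pgam1 changed by -0.03.

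**Figure D5:**
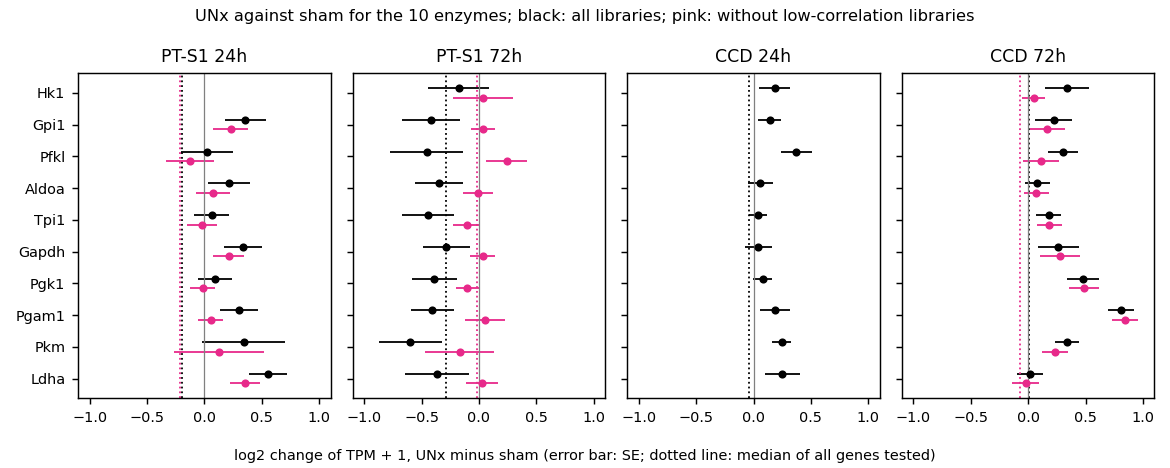
Changes of the 10 enzymes. The horizontal axis gives the log2 change of TPM + 1, UNx minus sham, with its SE, and dotted lines mark the median of all genes tested; black uses all libraries and pink leaves out the low-correlation libraries, with no pink points for CCD at 24 h, which had none. In PT-S1 at 72 h all black points are below 0 and the pink points lie around it, while Pgam1 in CCD at 72 h stays at 0.81 and 0.84.

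The other genes of glucose and pyruvate handling gave no calls either. Of the 19 regulators and transporters listed, 17 were tested in PT-S1 and 18 in CCD at 24 h, and 0 passed in limma at either. Over all genes tested, 0.0% of 11874 passed in PT-S1 and 0.987% of 13775 in CCD, so a count of 0 does not set a short list apart. Mpc2 and Mpc1, which form the carrier that brings pyruvate into mitochondria, changed by 0.18 ± 0.18 and 0.21 ± 0.18 on the log2 scale (SE) in PT-S1 at 24 h. Slc2a1, a glucose transporter, was at 502 ± 51.2 TPM (SD, n = 4) in sham CCD and 11.8 ± 1.75 TPM (SD, n = 3) in sham PT-S1 at 24 h, and changed by -0.05 ± 0.16 and -0.25 ± 0.20. Of 8 gluconeogenesis genes listed, 7 were tested in PT-S1 and 6 in CCD at 24 h, and 0 passed. Pck1, which starts gluconeogenesis from oxaloacetate, averaged 7611 ± 1501 TPM for sham (SD, n = 3) and 5853 ± 1685 TPM for UNx (SD, n = 4) in PT-S1 at 24 h, with a limma adjusted p of 0.435. Fbp1, which reverses the phosphofructokinase step, and G6pc, which releases glucose, changed by 0.15 ± 0.21 and -0.07 ± 0.25 there. Median changes in PT-S1 at 24 h were 0.12 for the regulators and -0.07 for gluconeogenesis, against 0.30 for the 9 enzymes tested and -0.19 for all genes tested.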

How the data were processed

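Polyadenylated RNA of dissected tubules was made into cDNA with a SMART-Seq V4 kit and sequenced on a NovaSeq instrument, per the labels' protocols. The authors deposited TPM values per gene and library in 4 tables. STAR, RSEM 1.3.3 and GRCm39 are named in the submitters' processing notes. All 69 columns were used. For 47 the name matched 1 sample, and for 22 it gave the group and animal but another library number, which does not touch animal means.

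From these values log2(TPM + 1) was averaged per animal and compared within each table by limma 3.58.1 (R 4.3.3, moderation with a mean-variance trend, two-sided) over genes with a mean of at least 1 TPM, with Benjamini-Hochberg adjustment and a threshold of 0.05. Folds on this scale understate the change of low genes. Low-correlation libraries have a median correlation under 0.92 with their table. Isozyme shares used animal means of TPM. No read count was used. Scripts were tested on simulated data. Figures used matplotlib 3.10.9.

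The enzymes and lists were chosen with earlier results of these data known. Named were all 10 enzymes, the 3 genes of highest mean TPM in each other list and any list gene past the threshold; 1 gene under this rule, and the isozyme share that needs it, are not reported here. Values of every animal were given for Pgam1 in all tables and for enzymes with no overlap between groups at 24 h. Values of Pgk1 at 72 h, Pgam2, Pklr and every animal of Eno1 were added after they were seen. Alternatives were another pseudocount, filter, scaling and averaging, the animal as a random effect, left-out libraries and animals, and a block by animal number. The limma p-values set the UNx minus sham difference against the spread between animals of a group, moderated over genes. The exact p-values rank the difference in mean share among all reassignments of the animals.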

Additional observations from a re-analysis of the deposited data

Results flagged for a closer look

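The highest or lowest animal was set against the rest in 60 groups of 4 or 5 animals, by the size of its gap as a share of the group's range, which by chance flags about 1 group in 20. It stood out in 4. In PT-S1 at 24 h UNx animal 3 had 508 TPM of Gpi1, where the other 3 animals had 352 to 353 TPM, and 58.0 TPM of Pfkl, where they had 32.5 to 33.7 TPM. In PT-S1 at 72 h UNx animal 1, which holds a low-correlation library, had 13.3 TPM of Pfkl, where the others had 25.1 to 29.8 TPM, and sham animal 3 had 11.7 TPM of Pkm, where the others had 3.89 to 5.97 TPM. That sham animal also had the highest intercalated cell marker sum of its table, 23.9 TPM, and 3.25 TPM of Hk1 and 3.36 TPM of Pgam2. Its libraries had 42.6 and 5.19 TPM of these markers and, in the same order, 11.8 and 11.7 TPM of Pkm. The part of these cells in its Pkm value was not tested.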

How the results depend on the processing

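Under the other settings, values of the enzymes' changes kept their direction and their side of the threshold 135 times in PT-S1 at 24 h (8 turned), 157 times in CCD at 24 h (2 turned) and 179 times for the difference between segments (18 turned). With the animal as a random effect Pkm alone passed in CCD at 24 h (1 enzyme), where 485 of 13775 genes passed. At 72 h all 170 values in CCD moved by less than the spread between animals, as did 180 in PT-S1, where 8 moved further. Pgam1 in PT-S1 at 72 h ranged from -0.49 to -0.28 with animals left out and from -0.42 to 0.05 under the other alternatives. The causes were not tested.

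The animal numbers were not taken to pair animals, since the correlation of same-numbered deviations was over 0.1 in 1 of 3, 2 of 5, 0 of 3 and 2 of 4 pairs of the tables. With a replicate block by number, genes called went from 0 to 81 in PT-S1 and from 136 to 0 in CCD at 24 h, and from 82 to 3 in CCD at 72 h, and no enzyme's call at 24 h changed.

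Genes called in PT-S1 at 24 h were 0, but 2 with no filter (genes above 0 TPM in 3 or more animals), 1 under quantile, 1 under median-ratio scaling, 1 without low-correlation libraries, 100 with the random effect and 0 to 8 with animals left out. In PT-S1 at 72 h they were 10 with the random effect and 1 without low-correlation libraries. In CCD at 24 h the 136 became 1 with no filter, 485 with the random effect and 7 to 78 with animals left out. In CCD at 72 h the 82 became 7 with no filter, 39 at a mean of 5 TPM, 129 without the low-correlation library and 8 to 73 with animals left out. For the difference between segments the 15 became 43 with no filter, 9 at a mean of 5 TPM, 24 under quantile scaling, 53 with the random effect and 179 without low-correlation libraries, and 0 to 163 with animals left out.

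At 24 h the directions that turned were all of uncalled changes. The largest of these enzyme changes in the main fit was that of Pkm in PT-S1 at 24 h, at 0.34. Turns at 72 h were not counted, and larger changes turned there without the low-correlation libraries. In PT-S1 at 72 h Gpi1 went from -0.42 to 0.03, Pfkl from -0.46 to 0.24 and Pgam1 from -0.41 to 0.05, while Pgk1 stayed below 0. In PT-S1 at 24 h Pfkl was -0.024 with log2 of mean TPM, -0.00013 with the random effect, -0.13 without low-correlation libraries and -0.18 to 0.13 with animals left out; without those libraries Tpi1 was -0.021 and Pgk1 -0.017. Pkm was -0.0016 to 0.58 and, in CCD, Gapdh -0.042 to 0.13 with animals left out. Differences between segments without low-correlation libraries were -0.062 for Tpi1, -0.098 for Pgk1, -0.13 for Pgam1 and -0.12 for Pkm, under quantile scaling -0.046 for Aldoa and -0.039 for Tpi1, and with animals left out -0.040 to 0.094 for Tpi1, -0.062 to 0.10 for Pgk1, -0.029 to 0.28 for Pgam1 and -0.25 to 0.33 for Pkm. The Pkm share in PT-S1 changed by -0.94 percentage points without low-correlation libraries, by -0.035 as a log2 ratio and by -0.94 to 3.83 with animals left out; the ranges were -2.14 to 1.07 for Pfkl in PT-S1 and -0.24 to 0.032 for Hk1 in CCD. No share passed in these settings, and with an animal left out the smaller groups made a pass impossible.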

Other observations

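In CCD at 72 h, in the contrast used to choose the enzymes and so given as values only, 2 genes of lactate and pyruvate handling were singled out after their values were seen. Slc16a3, a lactate exporter of glycolytic cells, averaged 1.34 ± 0.47 TPM for sham and 3.65 ± 1.04 TPM for UNx (SD, n = 4 each), a log2(TPM + 1) change of 1.00 ± 0.23 (SE). Pdk4, a kinase that blocks the entry of pyruvate into mitochondrial oxidation, averaged 33.1 ± 10.9 TPM for sham and 16.2 ± 2.63 TPM for UNx, a change of -0.91 ± 0.23 (SE). In CCD at 24 h the changes were 0.38 ± 0.29 and -0.06 ± 0.34.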
